A study of Mus musculus with 10 samples.

Results

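The earliest difference between the sleep deprivation (SD) and SASD conditions was read from 2 of the 10 libraries of the series, those of SD 6 h and SASD 6 h, with the ratio always taken as SD over SASD. Each library was made from the pooled blood RNA of 3 C57/BL6J mice, so each side had 1 library and no ratio had a replicate check or a p-value. The labels call the SASD condition a sleep restriction method reported earlier. The sources used here give neither how the conditions were carried out nor the hour of sampling nor the sex and age of the mice. All groups had 500 µL of blood drawn behind the eye under pentobarbital into EDTA, and RNA was taken with a blood kit and sequenced as paired reads. The other 8 libraries (SD 12, 24 and 48 h, SASD 12, 24, 48 and 120 h, and the control, Con, at 0 h) served only as a scale for how far libraries lie apart.

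The SD 6 h library held 10926554 counted read pairs and the SASD 6 h library 11082847. Haemoglobin genes took 6.51% of counts in SD 6 h (exact 95% interval 6.49% to 6.52%) and 6.07% in SASD 6 h (6.05% to 6.08%), so red cell RNA remained in both. Con, SD 48 h and SASD 48 h stood apart from the other 7 libraries, with haemoglobin shares of 0.727%, 0.316% and 0.275%. The leukocyte label held in both 6 h libraries: Ptprc, which encodes the pan-leukocyte antigen CD45, had 1609 CPM in SD 6 h and 1353 CPM in SASD 6 h. The SASD 6 h value was the lowest of the 10 libraries, and the highest was 2246 CPM in SASD 48 h. CPM here are counts scaled to a common library size after TMM, an adjustment for composition. RNA of 2 gene models that overlap ribosomal RNA took 2.099% of counts in SD 6 h against 2.696% in SASD 6 h, and mitochondrially encoded genes took 1.64% in SD 6 h and 1.79% in SASD 6 h.

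Blood leukocytes comprise neutrophils, monocytes, lymphocytes and natural killer cells, and whole blood RNA also carries platelet and red cell transcripts. Stress hormones and the waking day are known to move neutrophils, monocytes and lymphocytes between blood, vessel walls and bone marrow. Immediate early genes such as Fos answer within minutes to stimuli, and epithelial keratins, mucins and collagens are made by solid tissues and are scarce in circulating cells. In bulk RNA of this kind fewer cells of a type and less RNA per cell cannot be told apart.

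At 6 h the libraries were close, and the larger differences were nearly all in 1 direction. Of the 11537 genes that averaged 25 or more counts over both libraries, 116 differed by 2-fold or more (1.01%), of which 12 were higher in SD (0.104%) and 104 were lower in SD (0.901%). These counts used log2 ratios with a prior count of 2, which pulls low genes towards 0. The ratios given for single genes use no prior count and carry 95% exact binomial intervals that cover counting error only. By that interval 44 genes lay wholly past 2-fold (0.381%), every one of them lower in SD.

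Counts by interval and by sign were near balance, but counts at 1.5-fold were not. The interval excluded a ratio of 1 for 3409 genes (29.5%), of which 1787 were higher in SD (15.5%) and 1622 were lower (14.1%). By sign 53.4% of all genes were above 0. These shares are the scale for the counts of list members given below. Whether an interval excludes 1 depends on depth, so a list of deeply counted genes can exceed them at small ratios. The median log2 ratio over all genes was 0.02, and the 5th and 95th percentiles were -0.49 and 0.36. Most 2-fold genes had few reads: 11 of the 12 higher and 88 of the 104 lower genes lay among the 2576 genes with mean counts of 25 to 100. Of 2320 genes averaging 1000 or more counts, a single gene reached 2-fold, Gsto1, which was lower in SD. At 1.5-fold or more, 96 genes with mean counts of 25 to 100 were higher in SD and 293 were lower. With mean counts of 100 to 1000, 15 were higher and 99 lower, and with 1000 or more, 2 were higher and 5 lower.

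**Figure D1:**
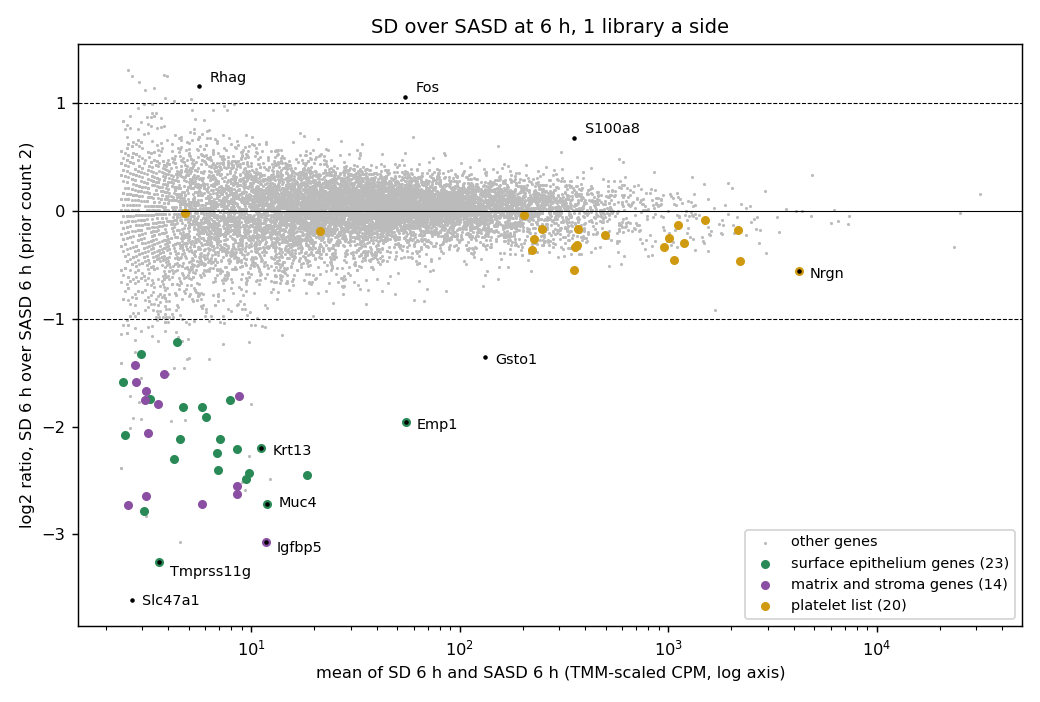
Log2 ratio of SD 6 h over SASD 6 h (vertical axis, prior count 2) against the mean TMM-scaled CPM of both libraries (horizontal, log axis), 1 point a gene for 11537 genes; dashed lines mark 2-fold. The 23 surface epithelium genes (green) and 14 matrix and stroma genes (purple) lie below the lower line, the 20 measured platelet genes (yellow) lie between 0 and -0.56, and 12 genes lie above the upper line.

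The scale for library noise came from the other pairs. Over the same 11537 genes the 6 h pair had the second fewest 2-fold genes of all 45 pairs of libraries. The fewest, 105, separated SD 6 h from SASD 12 h. The other 20 pairs among the 7 haemoglobin-rich libraries, most of which differ in time as well, had a median of 451 such genes and a range of 105 to 1167. With each pair's own genes, SD over SASD gave 331 2-fold genes at 12 h (2.93%), 788 at 24 h (7.08%, with 3.88% higher and 3.2% lower in SD) and 727 at 48 h (5.77%, with 4.14% higher in SD). The 6 h pair differed from these in direction too: 104 of its 116 genes were lower in SD, whereas 320 of 331 were higher in SD at 12 h.

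Each 6 h library was also set beside SASD 12 h. SD 6 h against SASD 12 h had 73 2-fold genes (0.644%), 53 higher (0.468%) and 20 lower (0.177%) in SD 6 h. SASD 6 h against SASD 12 h, a pair within one condition, had 201 (1.76%), of which 186 were higher in SASD 6 h. These pairs share SASD 12 h and are given side by side only. Of the 104 genes lower in SD 6 h, the SASD 6 h value lay above all other 8 libraries in 69. The SD 6 h value lay within the range of the other 8 in 89 of the 104, below it in 12 and above it in 3. Among all 11537 genes the SD 6 h value lay within that range in 10678, below it in 408 and above it in 451. The count minimum bears on these numbers: 57 of the 104 had fewer than 25 counts in SD 6 h and were kept through SASD 6 h, so a high SASD 6 h value is partly fixed by how the genes were chosen, and nothing is read from the share of them that lay above the range.

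Many of the genes far lower in SD are products of lining epithelia. A set of 23 genes was put together after the values were seen, from members of the 104 known from stratified or glandular surface epithelium, and is described without a test. Their summed level was 73.1 CPM in SD 6 h (766 counts) and 329 CPM in SASD 6 h (3458 counts), against 28.8 to 102 CPM in the other 8 libraries. SASD 6 h was above the other 8 in 22 of the 23 genes, the exception being Eps8l2, and SD 6 h lay inside their range in all 23. Among all 11537 genes SASD 6 h was above the other 8 in 6.49%, and SD 6 h lay inside their range in 10678. Of the 23, 11 had fewer than 25 counts in SD 6 h and were kept through SASD 6 h. The positions of the 23 are thus partly fixed by how the genes were chosen, and nothing is read from their number.

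Emp1, which encodes epithelial membrane protein 1, was the most abundant of them and is read from chr6:135362545-135383173 on the plus strand (GRCm38, the build called mm10). It had 236 counts in SD 6 h and 924 in SASD 6 h, or 22.5 CPM in SD 6 h and 87.9 CPM in SASD 6 h, a ratio of 0.256 (0.221 to 0.296). The other 8 libraries held 10.2 to 27.1 CPM, the highest being Con. SD 6 h thus lay inside the range of the other libraries and SASD 6 h far above its upper end.

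Krt13 and Krt6b, the keratin genes of this set, showed the same order, and keratins outside the set are given below. Krt13, a keratin of non-cornified stratified epithelium (chr11:100117327-100121566, minus strand), had 3.92 CPM in SD 6 h (41 counts) and 18.5 CPM in SASD 6 h (194 counts), against 0.765 to 5.77 CPM elsewhere. Its ratio was 0.212 (0.148 to 0.298). Krt6b, a keratin of stratified and wounded epithelium, had 7 counts in SD 6 h and 57 in SASD 6 h, a ratio of 0.123 (0.0474 to 0.271), and at most 1.99 CPM in the other libraries.

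Membrane mucins, which coat wet epithelial surfaces, were lower in SD as well. Muc4 (chr16:32735886-32782391, plus strand) had 32 counts in SD 6 h and 219 in SASD 6 h, or 3.06 CPM in SD 6 h and 20.8 CPM in SASD 6 h, a ratio of 0.147 (0.0979 to 0.213). Muc1 had 26 counts in SD 6 h against 96 in SASD 6 h, and Muc20 had 12 in SD 6 h and 39 in SASD 6 h.

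Surface proteases and transporters made up much of the rest. Tmprss11g, a membrane-bound serine protease, had the lowest ratio of the set, 0.0860 (0.0305 to 0.197), from 6 counts in SD 6 h and 70 in SASD 6 h. The serine protease genes Prss22, Prss27 and Prss8, the last encoding prostasin, had ratios of 0.201, 0.209 and 0.417. Slc6a14, an amino acid transporter of mucosal surfaces, had 31 counts in SD 6 h and 174 in SASD 6 h, a ratio of 0.179 (0.118 to 0.263). Slc5a1, the sodium-glucose transporter SGLT1, had 27 counts in SD 6 h and 122 in SASD 6 h.

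Plet1, a surface marker of epithelial progenitors, was second to Emp1 in level, with 59 counts in SD 6 h against 331 in SASD 6 h and a ratio of 0.179 (0.133 to 0.237). Nccrp1, an F-box-like protein of squamous epithelium, had 29 counts in SD 6 h and 170 in SASD 6 h. Upk1b, a uroplakin, had 14 counts in SD 6 h and 75 in SASD 6 h. Elf3, a transcription factor of epithelial cells, stood at 21 counts in SD 6 h and 78 in SASD 6 h, a ratio of 0.270 (0.159 to 0.442). Epn3, Psca, Tspan1, Calml3, Cldn23 and Mal had ratios of 0.180, 0.216, 0.210, 0.256, 0.279 and 0.288.

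**Figure D2:**
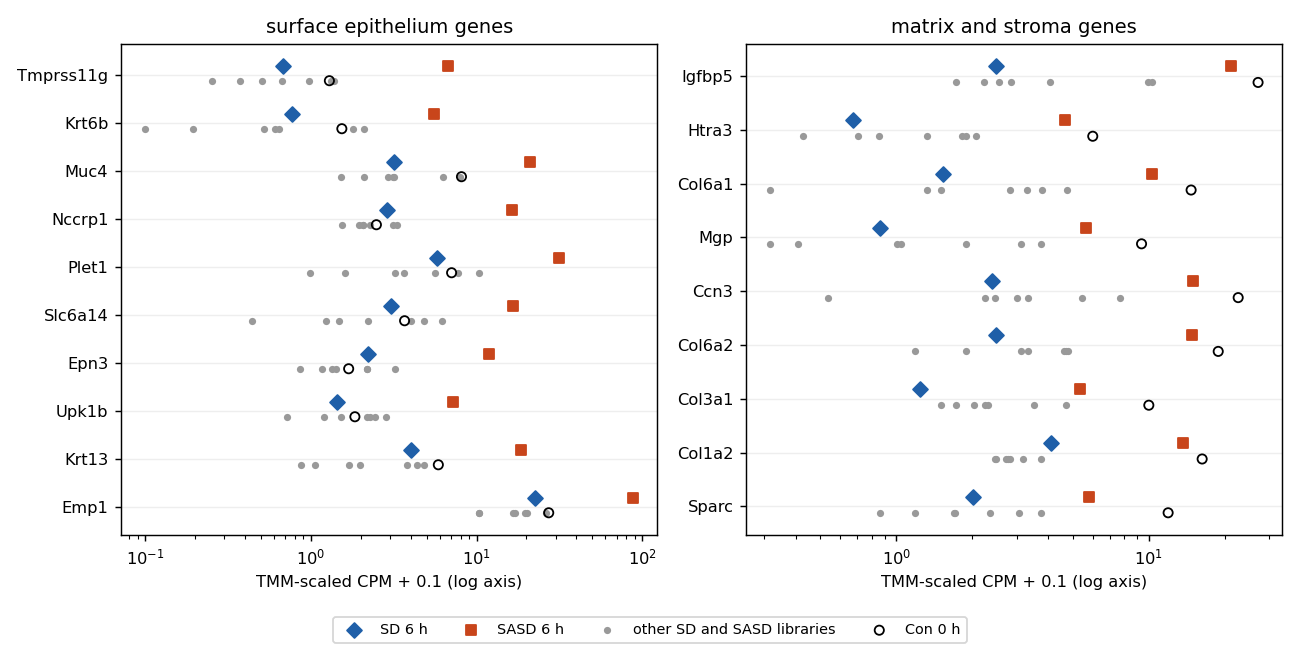
TMM-scaled CPM plus 0.1 (log axis) of 10 surface epithelium genes (left) and 9 matrix and stroma genes (right), 1 row a gene, with SD 6 h as blue diamonds, SASD 6 h as red squares, other SD and SASD libraries as grey dots and Con 0 h as open circles, 1 pooled library each. SASD 6 h is the rightmost point of each epithelial row, whereas Con lies to the right of SASD 6 h in each matrix row.

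The epithelial marker list, which holds general keratinocyte and epithelial genes and none of the 23, gave a mixed account. Of its 15 genes only Cdh1 and Sfn averaged 25 or more counts, and the interval of both included 1: Sfn had 574 counts in SD 6 h against 575 in SASD 6 h, and Cdh1 had 54 in SD 6 h and 64 in SASD 6 h. Below that level SD 6 h had 7 counts of Krt19, 3 of Perp and 3 of Krt15, and SASD 6 h had 40 of Krt19, 22 of Perp and 15 of Krt15. Epcam, the adhesion molecule of simple epithelia, had 21 counts in SD 6 h and 22 in SASD 6 h. Krt10 had 9 counts in SD 6 h and 12 in SASD 6 h. The basal keratins Krt5 and Krt14 had 0 counts in SD 6 h against 2 and 1 in SASD 6 h, and Krt1, Krt8, Krt18 and Trp63 had 0 in both. The list summed to 64.6 CPM in SD 6 h and 72.9 CPM in SASD 6 h, against 50.9 to 63.7 CPM in the other 8 libraries.

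A list of eye and orbital gland genes was read because the blood was drawn there. It summed to 37.9 CPM in SD 6 h and 45.3 CPM in SASD 6 h, with 30.5 to 333 CPM in the other 8 libraries. Most of both 6 h sums came from Ltf and Acad9. Ltf, which is also in the neutrophil granule list, had 15.7 CPM in SD 6 h and 23.7 CPM in SASD 6 h. Acad9 had 17.5 CPM in SD 6 h and 16.1 CPM in SASD 6 h. The sum is therefore not a measure of eye or gland RNA. Of the 14 listed genes that were counted 3 averaged 25 or more, and Cryaa, Crygs, Rpe65, Esp4, Lcn11 and Scgb2b27, which encode lens, retinal and gland products, had 0 counts in both 6 h libraries. The part of RNA from other tissues in the 104 lower genes was not tested.

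Promoter windows of the leading genes were read for the AP-1 element TGANTCA, the site bound by Fos and Jun proteins, because Fos was among the genes higher in SD. The windows run from 250 bases before to 50 bases after each RefSeq start (GRCm38.p6). Emp1 and Krt13 are shown as the lower genes with the highest SASD 6 h level among the named genes that hold more than 1 match, and Fos as the one 2-fold higher gene that averaged 100 or more counts. Capitals mark TGANTCA in the first pair and TGACGT, the core of the cyclic AMP response element, in Fos.
Emp1, chr6:135362681-135362980, plus strand: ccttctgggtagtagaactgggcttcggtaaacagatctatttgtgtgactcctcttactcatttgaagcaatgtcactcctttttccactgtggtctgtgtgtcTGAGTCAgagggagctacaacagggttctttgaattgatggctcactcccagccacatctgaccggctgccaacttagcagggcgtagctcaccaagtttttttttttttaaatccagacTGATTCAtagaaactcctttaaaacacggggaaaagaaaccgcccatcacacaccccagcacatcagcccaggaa
Krt13, chr11:100120528-100120827, minus strand: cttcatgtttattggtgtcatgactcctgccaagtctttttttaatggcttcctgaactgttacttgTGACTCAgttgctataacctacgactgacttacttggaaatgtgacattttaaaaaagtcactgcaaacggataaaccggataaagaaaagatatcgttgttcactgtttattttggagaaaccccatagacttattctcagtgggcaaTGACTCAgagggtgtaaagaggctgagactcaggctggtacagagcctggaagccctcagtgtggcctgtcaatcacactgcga
Fos, chr12:85473640-85473939, plus strand: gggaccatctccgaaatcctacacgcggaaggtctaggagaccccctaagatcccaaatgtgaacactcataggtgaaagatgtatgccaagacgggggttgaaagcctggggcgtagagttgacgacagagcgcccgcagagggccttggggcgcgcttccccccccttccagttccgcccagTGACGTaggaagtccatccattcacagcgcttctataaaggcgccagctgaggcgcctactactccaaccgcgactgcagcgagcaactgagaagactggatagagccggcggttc

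Emp1 and Krt13 each hold 2 matches to TGANTCA in these windows, and Fos holds 1 match to TGACGT. Both Emp1 and Krt13 have 2 windows, and the first by position that holds a match is shown. These 2 windows lie inside the gene spans given above. Plet1, at 31.5 CPM in SASD 6 h, stood above Krt13 but held 1 match and is not shown. The AP-1 element TGANTCA reads the same on both strands, the other motif was searched on both, and matches to both can share at most 1 letter. TGANTCA occurred in 11 of the 68 lower genes that had a window (16.2%), in 1 of 9 higher genes (11.1%) and in 544 of all 8939 genes with a window (6.09%). TGACGT occurred in 5 of the 68 lower genes (7.35%), in 3 of 9 higher genes (33.3%) and in 1232 of 8939 (13.8%). These are matches of letters, and no binding was measured.

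Genes of connective tissue formed the other large block of lower genes. A second set of 14 genes, also put together after the values were seen, covered collagens and matrix or stromal proteins. It summed to 24.0 CPM in SD 6 h (251 counts) and 119 CPM in SASD 6 h (1250 counts), against 16.4 to 68.0 CPM in the other SD and SASD libraries and 167 CPM in Con. Unlike the epithelial genes, 12 of the 14 were highest in Con, and SASD 6 h exceeded the other 8 libraries in 1, Mmp14, a membrane-bound matrix metalloproteinase. Members such as Col6a1, Mgp and Htra3, with 15, 8 and 6 counts in SD 6 h, were kept through SASD 6 h. The low summed level of SD 6 h is thus partly fixed by how the genes were chosen.

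Igfbp5, a secreted binding protein for insulin-like growth factors (chr1:72857932-72874884, minus strand), had 25 counts in SD 6 h and 221 in SASD 6 h, or 2.39 CPM in SD 6 h and 21.02 CPM in SASD 6 h. Its ratio was 0.114 (0.0719 to 0.172), and Con held 27.0 CPM. The collagen VI genes Col6a1 and Col6a2 had ratios of 0.141 (0.0761 to 0.243) and 0.163 (0.102 to 0.250), from 15 and 25 counts in SD 6 h and 107 and 154 in SASD 6 h. Both SASD 6 h values lay between the other SD and SASD libraries and Con.

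Fibrillar collagen genes were lower in SD in smaller measure. Col3a1 had a ratio of 0.219 (0.107 to 0.414), Col1a2 of 0.297 (0.205 to 0.422) and Col1a1, which missed 2-fold, of 0.544 (0.395 to 0.744). Mgp, an inhibitor of calcification, had 8 counts in SD 6 h against 58 in SASD 6 h, and Ccn3, a matricellular protein, had 24 in SD 6 h and 156 in SASD 6 h. Htra3, a secreted serine protease, had 6 counts in SD 6 h and 48 in SASD 6 h.

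The fibroblast and collagen list, which overlaps this set, had 7 measured genes of 16. Of these 6 were below 0, 5 of them at 2-fold or more, where 0.901% of all genes were 2-fold lower. The median log2 ratio was -1.72, beside 0.02 over all genes. Among the 2-fold members, Col3a1, Col6a1 and Sparc had 12, 15 and 20 counts in SD 6 h and were kept through SASD 6 h. The median is thus partly fixed by the count minimum. Unmeasured members of the list ran the same way for Bgn (9 counts in SD 6 h, 33 in SASD 6 h), Fstl1 (8 in SD 6 h, 39 in SASD 6 h) and Dcn (5 in SD 6 h, 21 in SASD 6 h). Lum had 0 counts in both libraries. Thy1, which T cells also express, had 2115 counts in SD 6 h against 2071 in SASD 6 h and took most of the list's sum of 222 CPM in SD 6 h and 269 CPM in SASD 6 h. The part of connective tissue RNA in these ratios was not tested.

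**Figure D3:**
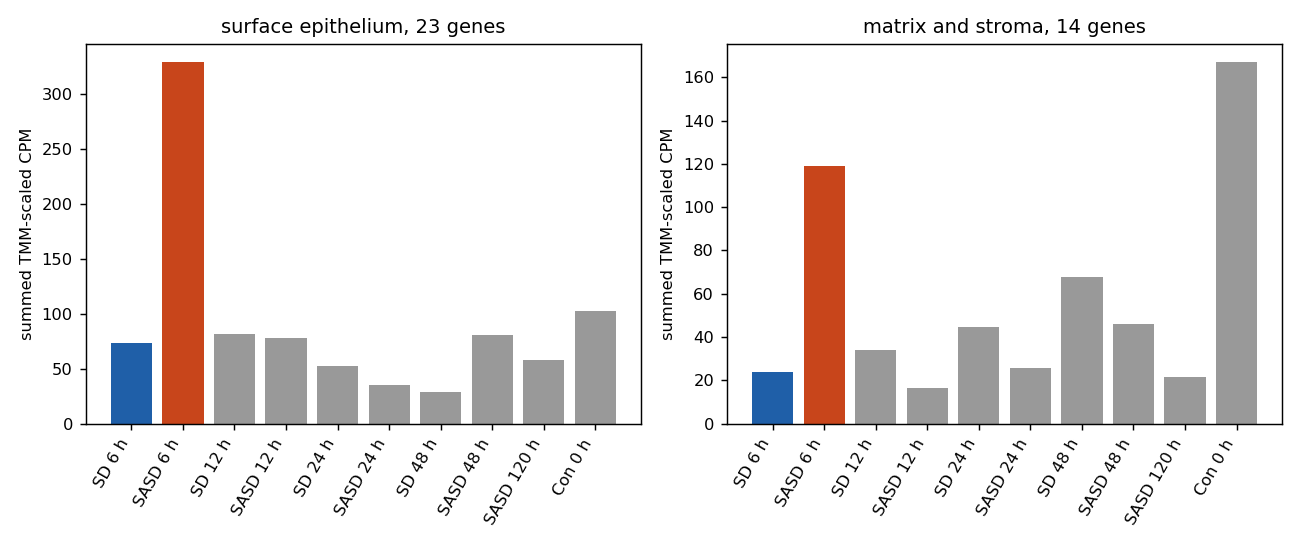
Summed TMM-scaled CPM of the 23 surface epithelium genes (left) and the 14 matrix and stroma genes (right) in each of the 10 libraries, 1 bar a pooled library. SASD 6 h stands at 329 CPM against 73.1 CPM in SD 6 h and at most 102 CPM elsewhere on the left, whereas on the right Con at 167 CPM exceeds SASD 6 h at 119 CPM.

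The remaining 67 lower genes fell outside both sets, and 15 of the 104 were not protein coding. Slc47a1, an exporter of organic cations, had the lowest ratio of all, with 3 counts in SD 6 h against 53 in SASD 6 h and a ratio of 0.0568 (0.0114 to 0.175), but SASD 6 h at 5.04 CPM lay below Con at 10.7 CPM. Uaca, a regulator of apoptosis, had 9 counts in SD 6 h and 87 in SASD 6 h, or 8.28 CPM in SASD 6 h against at most 3.21 CPM in the other 8 libraries. Ildr2, an immunoglobulin-domain receptor, and Ank2, the gene of ankyrin B, had 7 counts each in SD 6 h and 59 and 43 in SASD 6 h, with their highest value in Con. Plekhs1, named for its pleckstrin homology domain, had 27 counts in SD 6 h and 170 in SASD 6 h.

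Gsto1, which encodes the glutathione transferase omega 1, was the abundant exception among the lower genes. It is read from chr19:47854970-47864790 on the plus strand and had 773 counts in SD 6 h and 1989 in SASD 6 h, or 73.8 CPM in SD 6 h and 189 CPM in SASD 6 h. The ratio was 0.3901 (0.359 to 0.424). The other 8 libraries spanned 37.7 to 72.3 CPM with a median of 55.0, so SD 6 h lay just above their range and SASD 6 h far above it. It was the only gene above a mean count of 1000 at 2-fold.

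Several genes of inflammation and its restraint were also among the 104. Il1a, which encodes interleukin-1 alpha and is made by epithelial and myeloid cells, had 11 counts in SD 6 h and 46 in SASD 6 h, a ratio of 0.240 (0.112 to 0.470), and SASD 6 h at 4.38 CPM exceeded the other 8 libraries, which reached 2.02 CPM. Tnf, the gene of tumour necrosis factor, had 29 counts in SD 6 h and 69 in SASD 6 h, a ratio of 0.422 (0.264 to 0.660). Il18, an inflammasome-processed cytokine, had 19 counts in SD 6 h and 43 in SASD 6 h, a ratio of 0.444 (0.244 to 0.778). These 3 were the 2-fold members of a list of 18 measured cytokines and chemokines whose median was -0.08. As a scale, 0.901% of all genes and 3.42% of those with mean counts of 25 to 100 were 2-fold lower. Il1a and Il18, with 11 and 19 counts in SD 6 h, were kept through SASD 6 h. The intervals of the list lay above 1 for 3 genes and below 1 for 5, beside 15.5% and 14.1% of all genes.

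Thbd, the gene of thrombomodulin, an anticoagulant receptor of endothelium and monocytes, stood out in another way. It had 8.69 CPM in SD 6 h and 19.4 CPM in SASD 6 h, a ratio of 0.448 (0.346 to 0.576), and the other 8 libraries held 12.5 to 30.8 CPM. Here SD 6 h was the library below the range, and SASD 6 h was within it. Cd163l1, a scavenger receptor of gamma delta T cells, had 34 counts in SD 6 h and 171 in SASD 6 h, a ratio of 0.200 (0.134 to 0.290). Both of its values lay outside the range of the other 8 libraries, 3.67 to 9.26 CPM, SD 6 h at 3.25 CPM below and SASD 6 h at 16.3 CPM above.

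Plasma cell products were lower in SD in part. Jchain, the joining chain of polymeric antibodies, had 76 counts in SD 6 h and 161 in SASD 6 h, a ratio of 0.474 (0.356 to 0.626), and Igha, the IgA heavy chain, had 507 in SD 6 h and 908 in SASD 6 h, a ratio of 0.561 (0.502 to 0.626). Both 6 h values of each gene lay within the range of the other libraries, and the 9 measured genes of the list had a median of -0.07, with Iglc1 at a ratio of 1.35 (1.18 to 1.55). Chac1, a glutathione-degrading enzyme of the stress response, had 67 counts in SD 6 h and 142 in SASD 6 h. Its SASD 6 h level of 13.5 CPM compared with at most 7.05 CPM in the other 8 libraries. Phlda1, induced by growth signals, had a ratio of 0.425 (0.310 to 0.578).

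Beyond the 2-fold genes, some leukocyte lists leaned together by smaller amounts. The most uniform was the list of nonclassical monocytes, the patrolling subset that adheres to vessel walls: 0 of 16 measured genes were above 0, the median log2 ratio was -0.45, and 15 intervals lay wholly below 1, a class that held 14.1% of all genes. Treml4, a receptor of this subset, had 217 counts in SD 6 h and 355 in SASD 6 h, a ratio of 0.614 (0.516 to 0.729). Ace, the gene of angiotensin-converting enzyme (chr11:105967945-105989964, plus strand), had 1150 counts in SD 6 h and 1696 in SASD 6 h, a ratio of 0.681 (0.631 to 0.734). Cx3cr1, the fractalkine receptor, had a ratio of 0.677 (0.610 to 0.752). Cd36, a scavenger receptor, was the member nearest to 0, with 1420 counts in SD 6 h and 1441 in SASD 6 h.

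Ace and Treml4 lay inside the range of the other 8 libraries, and the summed list did so in SD 6 h but not in SASD 6 h. Ace had 110 CPM in SD 6 h and 161 CPM in SASD 6 h within 78.3 to 229 CPM, and Treml4 had 20.7 CPM in SD 6 h and 33.8 CPM in SASD 6 h within 14.1 to 51.0 CPM. The summed list had 1504 CPM in SD 6 h against 1944 CPM in SASD 6 h, and the other 8 libraries spanned 1278 to 1934 CPM, so SASD 6 h lay just above all 8. Pou2f2, a transcription factor gene, took the largest part of this sum, with 492 CPM in SD 6 h and 694 CPM in SASD 6 h. The sum thus rests in large part on 1 gene. Classical monocytes, the inflammatory subset, were lower in SD by less, with 4 of 14 genes above 0, a median of -0.09, and 7 intervals below 1 against 2 above. In that list F10, coagulation factor X, had a ratio of 0.632 (0.529 to 0.752) and Csf1r, the receptor that sustains monocytes, of 0.752 (0.707 to 0.800).

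**Figure D4:**
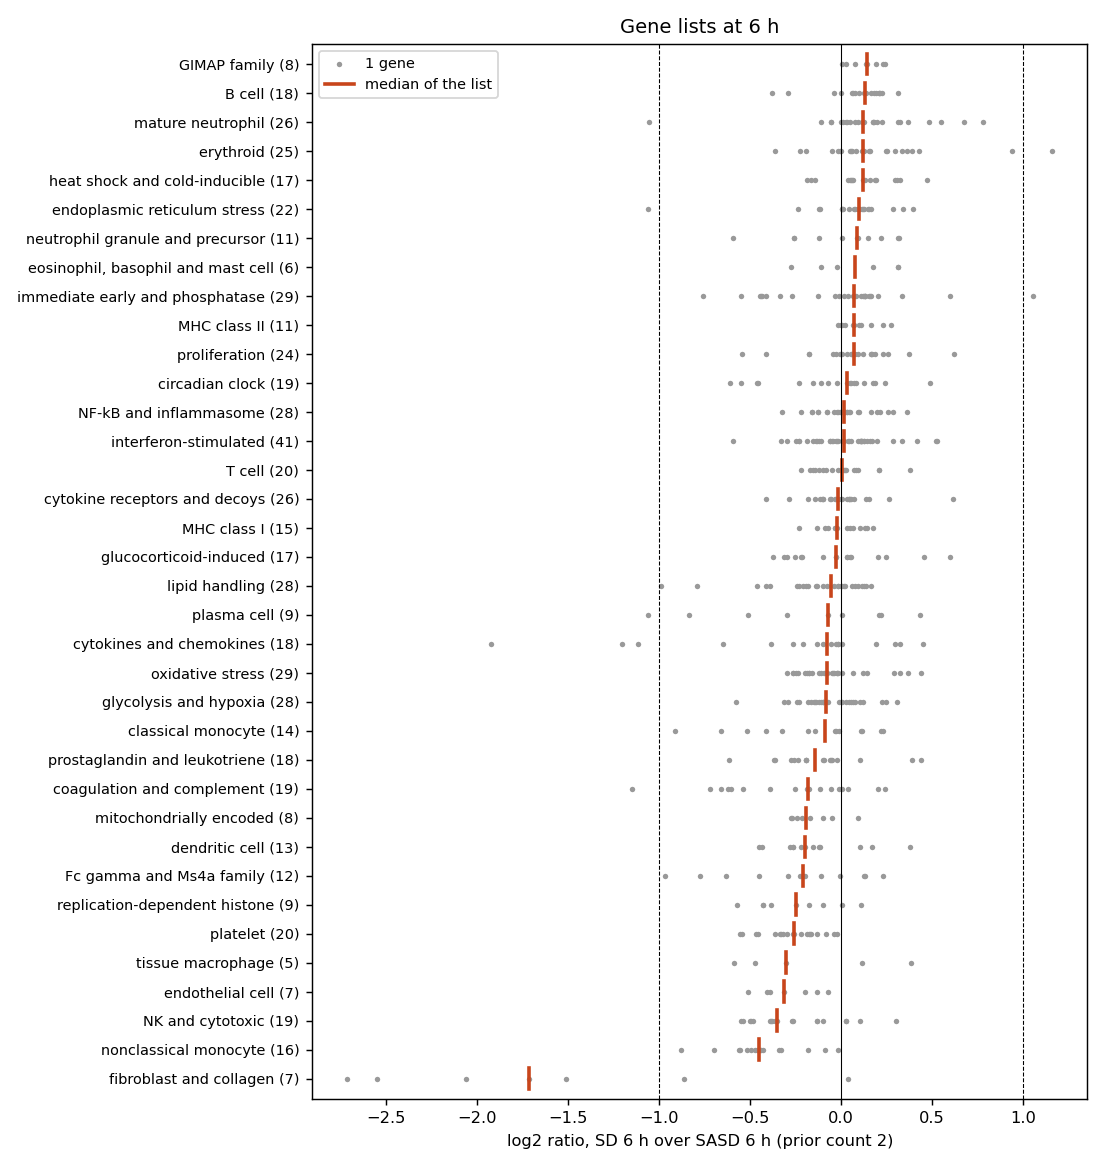
Log2 ratio of SD 6 h over SASD 6 h (horizontal axis, prior count 2) of each measured gene (grey dots) in the lists with at least 5 measured genes, ordered by median (red bars), with the number of measured genes in brackets; dashed lines mark 2-fold. Medians run from -1.72 for fibroblast and collagen genes and -0.45 for nonclassical monocytes to 0.14 for the GIMAP family, and all but the first lie within 0.5 of 0.

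Platelet genes were uniformly lower in SD. None (0) of 20 measured genes was above 0, the median was -0.26, and 17 intervals lay wholly below 1, beside 53.4% of all genes above 0 and 14.1% with an interval below 1. Nrgn, the calmodulin-binding neurogranin that platelets carry (chr9:37544492-37552904, minus strand), had 35821 counts in SD 6 h and 52935 in SASD 6 h, a ratio of 0.679 (0.670 to 0.688). Gp9, of the von Willebrand factor receptor complex, had a ratio of 0.685 (0.654 to 0.718), and Itga2b, the platelet fibrinogen receptor subunit, of 0.724 (0.711 to 0.737). Depth left these ratios with narrow counting intervals, but the list summed to 16132 CPM in SD 6 h and 20431 CPM in SASD 6 h within 4118 to 26651 CPM in the other 8 libraries.

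Natural killer and cytotoxic genes were lower in SD in 15 of 19, with a median of -0.35 and 11 intervals below 1 against 0 above, where 14.1% of all genes were below 1 and 15.5% above. The list summed to 729 CPM in SD 6 h and 890 CPM in SASD 6 h, both within the 723 to 929 CPM of the other 8 libraries. Prf1, the gene of perforin (chr10:61297833-61304680, plus strand), had 632 counts in SD 6 h and 930 in SASD 6 h, a ratio of 0.682 (0.616 to 0.756). Its levels of 60.4 CPM in SD 6 h and 88.5 CPM in SASD 6 h lay on either side of the other 8 libraries, which kept to 66.7 to 80.8 CPM. S1pr5, a receptor for exit from tissues, and Gzmb, granzyme B, had ratios of 0.688 (0.595 to 0.793) and 0.706 (0.602 to 0.826). Tbx21, the transcription factor T-bet, had a ratio of 0.709 (0.591 to 0.849), while the natural killer receptor genes Klra8 and Klre1 had log2 ratios of 0.03 each.

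Several other lists had medians below 0. Endothelial genes had 0 of 7 above 0 and a median of -0.31, with 2 intervals below 1, and the defining genes Cldn5, Emcn, Ptprb and Sox17 were at or near 0 on both sides, with 0 counts each in SD 6 h and 1, 1, 4 and 1 in SASD 6 h. Replication-dependent histone genes had a median of -0.25 over 9 genes, coagulation and complement genes -0.18 over 19, and dendritic cell genes -0.20 over 13. Fc gamma receptor and Ms4a genes had a median of -0.21 over 12, with the high-affinity IgG receptor Fcgr1 at 67 counts in SD 6 h and 133 in SASD 6 h, a ratio of 0.506 (0.371 to 0.683). Mitochondrially encoded genes had 1 of 8 above 0 and a median of -0.19, the lowest being mt-Nd4, a subunit of complex I, at a ratio of 0.826 (0.808 to 0.845).

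Genes higher in SD were few and mostly rarely counted. Fos, an immediate early transcription factor (chr12:85473890-85477273, plus strand), was the exception, with 773 counts in SD 6 h and 373 in SASD 6 h, or 73.8 CPM in SD 6 h and 35.5 CPM in SASD 6 h. Its ratio was 2.08 (1.84 to 2.36). The other 8 libraries ran from 18.9 CPM in Con to 155 CPM in SD 48 h with a median of 73.4, so both 6 h values lay inside their range and SD 6 h near its middle.

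Other immediate early genes did not share the Fos ratio. Dusp1, a phosphatase that ends MAP kinase signals, had 1914 counts in SD 6 h and 1266 in SASD 6 h, a ratio of 1.52 (1.41 to 1.63). Jun, the partner of Fos, had 236 counts in SD 6 h against 239 in SASD 6 h, and Junb had 1882 in SD 6 h and 1787 in SASD 6 h. Egr1 was on the other side, with 131 counts in SD 6 h against 179 in SASD 6 h, and Nr4a3, a nuclear receptor of the same response, had a ratio of 0.581 (0.367 to 0.908). The 29 measured genes of the list had 18 above 0 and a median of 0.07.

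Neutrophil genes leaned higher in SD. Of 26 mature neutrophil genes 21 were above 0, with a median of 0.12, and 12 intervals lay above 1 and 1 below it, beside 15.5% and 14.1% of all genes. S100a8 (chr3:90668978-90670035, plus strand) and S100a9, the subunits of calprotectin, had 4561 and 7108 counts in SD 6 h and 2869 and 5095 in SASD 6 h. Their ratios were 1.60 (1.52 to 1.67) and 1.40 (1.35 to 1.45). For both genes the 6 h values lay within the other 8 libraries, which for S100a8 spanned 237 to 2427 CPM around 436 CPM in SD 6 h and 273 CPM in SASD 6 h.

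Members of the list differed among themselves. G0s2, a lipase inhibitor, had a ratio of 1.76 (1.08 to 2.90) and Stfa2l1, a stefin of neutrophils, of 1.47 (1.12 to 1.95). Csf3r, the receptor for granulocyte colony-stimulating factor, had 10364 counts in SD 6 h and 10420 in SASD 6 h. Ly6g, the gene of the neutrophil surface antigen, ran the other way, with 16 counts in SD 6 h against 35 in SASD 6 h and a ratio of 0.459 (0.237 to 0.851). The 11 measured granule and precursor genes had a median of 0.09, with Ltf, lactoferrin, at a ratio of 0.661 (0.540 to 0.808).

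**Figure D5:**
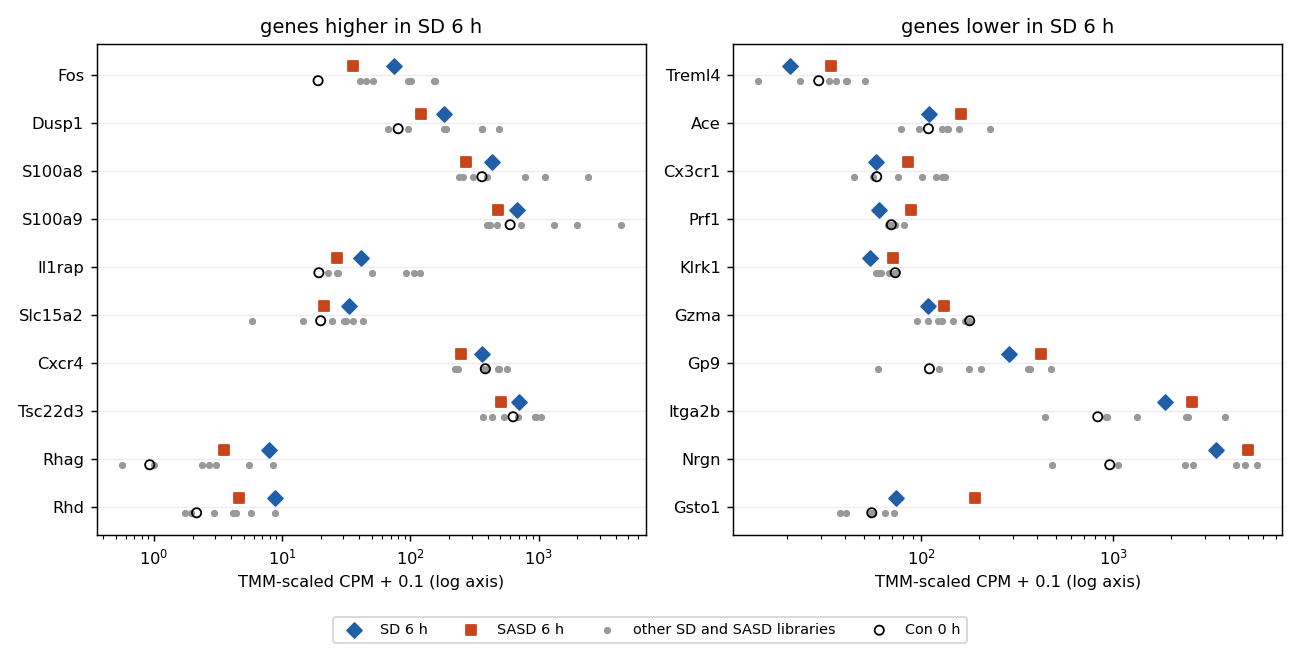
TMM-scaled CPM plus 0.1 (log axis) of 10 genes higher (left) and 10 genes lower (right) in SD 6 h, 1 row a gene, with SD 6 h as blue diamonds, SASD 6 h as red squares, other SD and SASD libraries as grey dots and Con 0 h as open circles, 1 pooled library each. The distance between both 6 h points is within the spread of the other libraries in most rows; Gsto1 and Prf1 are rows in which SASD 6 h lies to the right of all others.

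Among genes averaging 1000 or more counts, the highest ratios after S100a8 and Dusp1 belonged to Cxcr4, S100a9 and Pgap1. Cxcr4, the receptor that holds leukocytes in bone marrow, had 3813 counts in SD 6 h and 2623 in SASD 6 h, a ratio of 1.46 (1.39 to 1.53). Tsc22d3, the glucocorticoid-induced leucine zipper gene, had 7301 counts in SD 6 h and 5351 in SASD 6 h, a ratio of 1.37 (1.32 to 1.42). The list of glucocorticoid-induced genes that contains Tsc22d3 and Dusp1 was otherwise even, with 8 of 17 above 0 and a median of -0.03. Il1rap, the accessory chain of the interleukin-1 receptor, had a ratio of 1.54 (1.32 to 1.79). Sod2, the mitochondrial superoxide dismutase, stood at 56.0 CPM in SD 6 h and 41.3 CPM in SASD 6 h, against at most 45.3 CPM in the other 8 libraries.

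Red cell genes were slightly higher in SD, with 18 of 25 above 0, a median of 0.12, and 15 intervals above 1 against 4 below. Over all genes 53.4% were above 0, with 15.5% of intervals above 1 and 14.1% below. Rhag and Rhd, which encode proteins of the Rh complex of the red cell membrane, had 82 and 91 counts in SD 6 h and 36 and 47 in SASD 6 h. Their ratios were 2.29 (1.53 to 3.48) and 1.94 (1.35 to 2.83). The globin genes Hbb-bs and Hba-a1 had ratios of 1.11 (1.11 to 1.12) and 0.987 (0.982 to 0.993). Multi-mapped reads, which similar globin copies can give, were not counted.

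B cell genes leaned higher in SD and T cell genes were near even. As a scale, 53.4% of all genes were above 0, and intervals lay above 1 in 15.5% and below 1 in 14.1%. Of 18 B cell genes 14 were above 0, with a median of 0.13 and 13 intervals above 1 against 3 below, while the transcription factor genes Ebf1 and Pax5 had ratios of 0.768 (0.736 to 0.801) and 0.818 (0.796 to 0.840). Immunoglobulin variable segments were above 0 in 80 of 102, with a median of 0.20. All 8 measured genes of the GIMAP family, guanosine triphosphatases of lymphocyte survival, were above 0, with a median of 0.14 and 5 intervals above 1 against 0 below. T cell genes had 10 of 20 above 0, a median of 0.00, and 4 intervals above 1 against 6 below, with Ccr7, the lymph node homing receptor, at 1.30 (1.24 to 1.37). Ctla4, an inhibitory T cell receptor, was among the 12 higher genes, with 73 counts in SD 6 h and 35 in SASD 6 h, a ratio of 2.09 (1.38 to 3.23).

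The other 2-fold higher genes with a symbol were Nthl1, Lhx1, Dyrk3, Igkv9-124 and Fahd2a, and 4 gene models named by clone numbers made up the rest. Nthl1, a base excision repair glycosylase, had the highest ratio, 2.61 (1.41 to 5.10), from 39 counts in SD 6 h and 15 in SASD 6 h. Lhx1, a homeobox gene, had 57 counts in SD 6 h against 23 in SASD 6 h, and Dyrk3, a kinase that dissolves stress granules, had 43 in SD 6 h and 18 in SASD 6 h. Of the 12 higher genes SD 6 h lay above the other 8 libraries in 7 and SASD 6 h lay below them in 5. Members such as Nthl1, Dyrk3 and Lhx1, with 15, 18 and 23 counts in SASD 6 h, were kept through SD 6 h. These positions are thus partly fixed by how the genes were chosen, and nothing is read from them. On the log2 scale with the prior count, by which genes were counted as 2-fold, Mmab came just under the threshold at 0.99. Mmab, an enzyme of cobalamin metabolism, had 116 counts in SD 6 h and 58 in SASD 6 h, a ratio without the prior count of 2.01 (1.45 to 2.80). Lpl, lipoprotein lipase, was just outside on the lower side at -0.99 on that scale, with 74 counts in SD 6 h and 149 in SASD 6 h, a ratio without the prior count of 0.499 (0.372 to 0.663).

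Growth and folding genes leaned higher in SD by small amounts. Cytosolic ribosomal protein genes were above 0 in 65 of 77, beside 53.4% of all genes, with a median of 0.15. Heat shock and cold-inducible genes had 14 of 17 above 0 and a median of 0.12, with Hsph1, a co-chaperone, at a ratio of 1.39 (1.23 to 1.57). Hspa8, the constitutive chaperone, had 658 CPM in SD 6 h against 634 CPM in SASD 6 h, and both lay below the other 8 libraries, which spanned 722 to 1286 CPM. Endoplasmic reticulum stress genes had 18 of 22 above 0 and a median of 0.10, with Chac1 the member 2-fold lower. Antisense gene models were above 0 in 40.0% and 2-fold lower in 4.10% of 195, beside 53.4% and 0.901% of all genes. Among all genes with mean counts of 25 to 100, 3.42% were 2-fold lower. Without a strand option the reads of antisense models cannot be told from those of the genes they face.

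Clock and interferon genes, which respond to time of day and to virus-like signals, were centred on 0. The 19 measured clock genes had a median of 0.03. Per2, of the negative limb, had 114 counts in SD 6 h and 81 in SASD 6 h, a ratio of 1.41 (1.05 to 1.90), and Bhlhe41, a clock repressor, had 108 in SD 6 h and 166 in SASD 6 h, a ratio of 0.653 (0.508 to 0.837). The 41 interferon-stimulated genes had a median of 0.01, with Rsad2, viperin, at 21830 counts in SD 6 h and 22853 in SASD 6 h. MHC class II genes had a median of 0.07 over 11 and MHC class I genes -0.02 over 15. Medians near 0 were also found for cytokine receptors (-0.02 over 26), NF-kB and inflammasome genes (0.02 over 28) and proliferation genes (0.07 over 24). Oxidative stress genes had a median of -0.08 over 29, with 11 intervals below 1 against 4 above. Glycolysis and hypoxia genes had -0.08 over 28, with 11 below 1 against 2 above, and lipid handling genes -0.06 over 28, with 9 below 1 against 0 above. In these 3 lists the intervals below 1 made up a larger share than the 14.1% of all genes. Whether an interval excludes 1 depends on depth, and no share was taken over genes of like depth. Nothing is therefore read from these larger shares.

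The ratios at 6 h were set beside those of SD over SASD at the later shared times, which share no library with them. Of the 104 lower genes, 50 had enough reads at 12 h, where 3 were 2-fold lower in SD (6%, where 0.0974% of all genes were) and 5 higher (10%, against 2.83%). At 24 h 38 had enough reads, with 4 lower (10.5%, against 3.2% of all genes) and 8 higher (21.1%, against 3.88%). At 48 h 87 had enough reads, and 16 were 2-fold lower in SD (18.4%, where 1.63% of all genes were) and 2 higher (2.30%, against 4.14%). Of the 23 epithelial genes, 12 were measured at 12 h, with 3 lower, 1 higher and a median of 0.30, and 2 at 24 h, with 1 higher and a median of 0.87. At 48 h 16 were measured, with 9 at 2-fold lower, 0 higher and a median of -1.66. Plet1 and Slc6a14 had log2 ratios of -3.33 and -3.32 at 48 h, beside -2.45 and -2.43 at 6 h. Both 48 h libraries belong to the 3 that stand apart, and the summed epithelial level there was 28.8 CPM in SD 48 h and 80.3 CPM in SASD 48 h, below the 329 CPM of SASD 6 h.

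The 48 h median of the matrix genes was 0.27 over 14. S100a8 had log2 ratios of 0.67, 1.61, 2.24 and 2.62 at 6, 12, 24 and 48 h, and the mature neutrophil list had medians of 0.12, 1.52, 1.21 and 1.87. The nonclassical monocyte list had medians of -0.45, -0.01, 0.71 and -0.45 at 6, 12, 24 and 48 h, and the platelet list -0.26, -0.16, -1.28 and 0.90. The sign of the platelet list thus differed between times. Fos was higher in SD at every shared time, with log2 ratios of 1.05, 1.10, 0.59 and 1.94.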

How the data were processed

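Read pairs were trimmed with Trimmomatic 0.39 and aligned to mm10 with STAR 2.7.9a, per the submitters' processing notes. The authors deposited raw counts for 32285 genes, made with featureCounts 2.0.3 from pairs over exons, with no strand option and without multi-mapped or overlapping reads, per the file headers. Libraries were prepared with a TruSeq kit, per the labels' protocols. Symbols, positions and gene types came from GENCODE release 21 of the mouse series (GRCm38), which matched 32235 genes and not the other 50; where a symbol had several IDs, lists used the one with most counts. All 10 count columns matched a sample label.

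TMM factors over the 10 libraries came from edgeR 4.0.16 (R 4.3.3). Genes averaging 25 or more counts over both libraries were compared, on the log2 scale after TMM, with a prior count of 2 added before the ratio. Single-gene ratios used no prior count and exact conditional binomial (Clopper-Pearson) 95% intervals (scipy 1.17.1, Python 3.11.15), which were tested on simulated counts. Intervals cover counting error only, and reads without molecular identifiers are not independent molecules. With 1 library a side no test was possible, and edgeR gave scaling only.

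The 40 gene lists (853 entries, 852 in the table) and the comparison were chosen with earlier results of these data known. Genes were drawn from those with the highest 12 and lowest 20 ratios whose interval excluded 1 (clone-numbered models left out), the 10 highest and 10 lowest with mean counts of at least 100 and of at least 1000, and up to 4 members with the largest ratios and 2 with the highest CPM of each list; other members were named after their values were seen. Promoter sequences are RefSeq's. Alternatives changed the scaling (DESeq2 1.42.0 size factors, total counts, TMM from the pair, haemoglobin genes left out), the count minimum and the prior count. Values of a few genes of these lists are not reported here.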

Additional observations from a re-analysis of the deposited data

Results flagged for a closer look

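Of the 104 genes 2-fold lower in SD at 6 h, 12 had a log2 ratio above 0 at every later shared time, and in 2 of these SD was at least 2-fold higher at each. The same count over all genes was not made, so nothing is read from these numbers. Igfbp6, an insulin-like growth factor binding protein, had a log2 ratio of -1.79 at 6 h, from 16 counts in SD 6 h against 59 in SASD 6 h, and 2.12, 2.29 and 3.46 at 12, 24 and 48 h. Ly6g had -1.06 at 6 h and 1.83, 1.95 and 4.47 at 12, 24 and 48 h. The difference between times was not tested, since each time had 1 library a side.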

How the results depend on the processing

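The count minimum was the setting that moved how many genes reached 2-fold. With an average of 10 or more counts, 388 genes reached 2-fold, 66 higher and 322 lower in SD, and 79 had an interval past 2-fold. With at least 100 they were 17, 1 higher and 16 lower, and 10 by interval. Lower genes outnumbered higher ones under each of the 8 alternatives run, the totals per side being 9 to 15 higher and 90 to 114 lower under the scaling and prior-count alternatives. Each of the 39 list medians moved by no more than the median half-width, on the log2 scale, of its own genes' counting intervals, 35 of them having a value with at least 100 counts. Those of 3 lists lay close to 0 and changed sign with the count minimum: skeletal and smooth muscle was -0.12 with at least 10 counts, against 0.02 as reported, eosinophil, basophil and mast cell was -0.11 with at least 100, against 0.08, and glucocorticoid-induced was 0.0026 with at least 100, against -0.03. Of 264 single genes, mt-Co1, Hba-a1 and Hbb-bs moved beyond their counting interval with total counts only. No named gene at 2-fold or more changed direction. No paired analysis was possible because each group had 1 library and the labels carry no replicate numbers; for the same reason no library could be left out. Depth limits the genes with mean counts of 25 to 100, which hold most of the 2-fold genes and whose intervals are wide.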
